A study of Homo sapiens with 9 samples.

Results

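The cyclic nucleotide phosphodiesterases described here are 10 human genes, PDE2A, PDE4A, PDE4B, PDE4D, PDE7A, PDE7B, PDE8A, PDE8B, PDE10A and PDE11A. They were chosen by symbol in the array's probe annotation, and all 10 were measured among the 19775 genes of the array. They were followed in H295R, a steroid-producing line grown from a human carcinoma of the adrenal cortex. The cells were treated for 3 h with 100 nM torcetrapib (CP-529414, which inhibits the cholesteryl ester transfer protein CETP), with 100 nM angiotensin II or with DMSO, the vehicle, and each of the 3 groups held 3 arrays. Renin-angiotensin-aldosterone signalling under CETP inhibitors was the study's question, and all groups share this 1 carcinoma line as the model. No label tells whether replicate arrays stem from separate cultures, and p-values therefore cover only the spread among these samples, which may be technical.

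Phosphodiesterases hydrolyse cyclic AMP and cyclic GMP and so end the signals that adenylyl and guanylyl cyclases start. In the adrenal cortex cyclic AMP carries the signal of corticotropin to steroid synthesis. The PDE4, PDE7 and PDE8 enzymes act on cyclic AMP, whereas PDE2A, PDE10A and PDE11A accept both nucleotides. PDE2A is stimulated by cyclic GMP and is known from the zona glomerulosa, where it links natriuretic peptide signals to lower cyclic AMP. PDE8B and PDE11A are known as genes mutated in some inherited adrenal hyperplasias.

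Levels are the deposited log2 values of each gene's brightest probe set, so a difference of 1 is a 2-fold change, and brightness on the array does not rank one gene's abundance against another's. Differences were tested with limma across all genes, with p-values adjusted by Benjamini-Hochberg, and a gene was called where the adjusted p was under 0.05. The adrenal cortex markers, chosen with earlier results of these data known, were bright. Of the 9 measured, 8 lay above the median gene at 6.73, with STAR at 11.9 and CYP11A1 at 11.1 with torcetrapib. No endothelial (0 of 4) and no immune marker (0 of 4) lay above that median. Of the medulla markers 2 of 5 did (CHGA and CHGB) and of the fibroblast markers 1 of 5 (COL1A1). Of the cortex markers 6 of 9 were called in some comparison, as was the fibroblast gene COL3A1, which was lower with torcetrapib than with angiotensin II (-0.36 ± 0.10 SE, limma adjusted p = 0.0268). Taken singly, the comparisons called 6.12% (angiotensin II against DMSO), 1.16% (torcetrapib against DMSO) and 11.3% (torcetrapib against angiotensin II) of all genes. No medulla, endothelial or immune marker was called, and the part of these cell types in the results was not tested. The mean level of the medulla list ranged from 6.14 to 6.29 with torcetrapib, 6.18 to 6.30 with angiotensin II and 6.21 to 6.29 with DMSO, and that of the fibroblast list from 5.24 to 5.31, 5.30 to 5.52 and 5.31 to 5.42 in the same order. An index of RNA quality, the log2 signal of 5′ minus 3′ control probe sets of ACTB and GAPDH, was -0.275, -0.219 and -0.233 on the torcetrapib arrays, -0.621, -0.627 and -0.597 on the angiotensin II arrays and -0.719, -0.276 and -0.504 on the DMSO arrays. The torcetrapib arrays lay above all others, DMSO replicate 2 only just below them, but with 3 arrays a group an exact permutation test (two-sided) cannot go under the p = 0.1 that it gave against angiotensin II and against DMSO.

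The promoters of 9 of the 10 genes were searched for the cyclic AMP response element (CRE), the site bound by CREB, because PDE4B is described as a cyclic AMP-induced gene. PDE7A was not searched, because the source used held no promoter sequence for it. RefSeq (GRCh38.p14) gives the 9 searched genes 34 transcript starts, and each was searched from 250 bases before to 20 bases after the start, on both strands. The full element, written TGACGTCA, was found at 2 of the 34 starts, against 1.82% of all 34943 starts, and the shorter element, written TGACG, was found at 3, against 22.9% of all. The full element holds the shorter one on either strand. The AP-1 letters TGANTCA were found at 2 starts, both of PDE4D, against 7.14% of all. PDE4B itself held none of these motifs at any of its 6 starts, which says only that the letters are not in these windows. The stretches below are the starts of PDE4A and PDE7B that hold the full element (chr19:10416523-10416792 and chr6:135851451-135851720, plus strand), and the first and the last start of PDE4B (chr1:65792260-65792529 and chr1:66354285-66354554, plus strand), shown because PDE4B is the gene that responded. Capitals mark full and shorter elements.
PDE4A: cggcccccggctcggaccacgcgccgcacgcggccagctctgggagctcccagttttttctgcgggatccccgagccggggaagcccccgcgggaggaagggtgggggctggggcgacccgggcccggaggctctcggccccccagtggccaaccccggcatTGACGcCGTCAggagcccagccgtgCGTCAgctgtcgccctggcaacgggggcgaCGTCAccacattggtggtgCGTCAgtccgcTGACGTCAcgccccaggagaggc
PDE7B: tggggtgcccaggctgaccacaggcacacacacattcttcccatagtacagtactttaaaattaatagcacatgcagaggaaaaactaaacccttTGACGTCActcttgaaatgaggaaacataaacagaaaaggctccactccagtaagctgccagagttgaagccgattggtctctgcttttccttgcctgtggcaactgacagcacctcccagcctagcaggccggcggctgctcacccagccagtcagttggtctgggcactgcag
PDE4B, first start: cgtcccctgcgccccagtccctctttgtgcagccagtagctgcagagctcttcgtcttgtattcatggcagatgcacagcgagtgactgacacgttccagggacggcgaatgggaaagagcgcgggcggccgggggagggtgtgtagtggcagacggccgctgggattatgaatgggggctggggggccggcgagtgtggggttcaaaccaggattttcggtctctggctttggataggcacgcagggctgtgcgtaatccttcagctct
PDE4B, last start: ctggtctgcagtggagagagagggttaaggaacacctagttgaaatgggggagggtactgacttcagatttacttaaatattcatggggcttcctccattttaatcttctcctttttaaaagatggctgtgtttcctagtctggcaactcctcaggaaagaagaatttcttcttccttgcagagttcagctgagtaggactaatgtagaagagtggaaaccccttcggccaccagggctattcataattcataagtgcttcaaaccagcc

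PDE4B, which encodes a cyclic AMP-specific phosphodiesterase, rose with either treatment. By brightest probe sets it was the only one of the 10 genes called higher in any comparison. Some dimmer probe sets of PDE4D, PDE7A, PDE7B and PDE8A were called higher with torcetrapib, as given below. The levels of PDE4B were 7.27, 7.35 and 7.13 with torcetrapib, 8.12, 7.97 and 8.13 with angiotensin II and 6.60, 6.63 and 6.82 with DMSO. The 3 groups did not overlap on any array, with torcetrapib between the other two. Angiotensin II raised PDE4B 2.62-fold over DMSO (log2 change 1.39 ± 0.09 SE, 95% interval 1.20 to 1.58, adjusted p = 2.99e-08). The rise with torcetrapib was 1.48-fold over DMSO (0.57 ± 0.09, interval 0.37 to 0.76, adjusted p = 0.00454). At the same dose and time PDE4B was 1.77-fold lower with torcetrapib than with angiotensin II (-0.83 ± 0.09, interval -1.02 to -0.63, adjusted p = 1.78e-05). With the RNA quality index in the model the torcetrapib change against DMSO was 0.54 ± 0.13 and no longer passed (adjusted p = 0.127, range over its alternatives 0.000250 to 0.127), while the change against angiotensin II was -0.86 ± 0.16 (adjusted p = 0.0113).

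**Figure D1:**
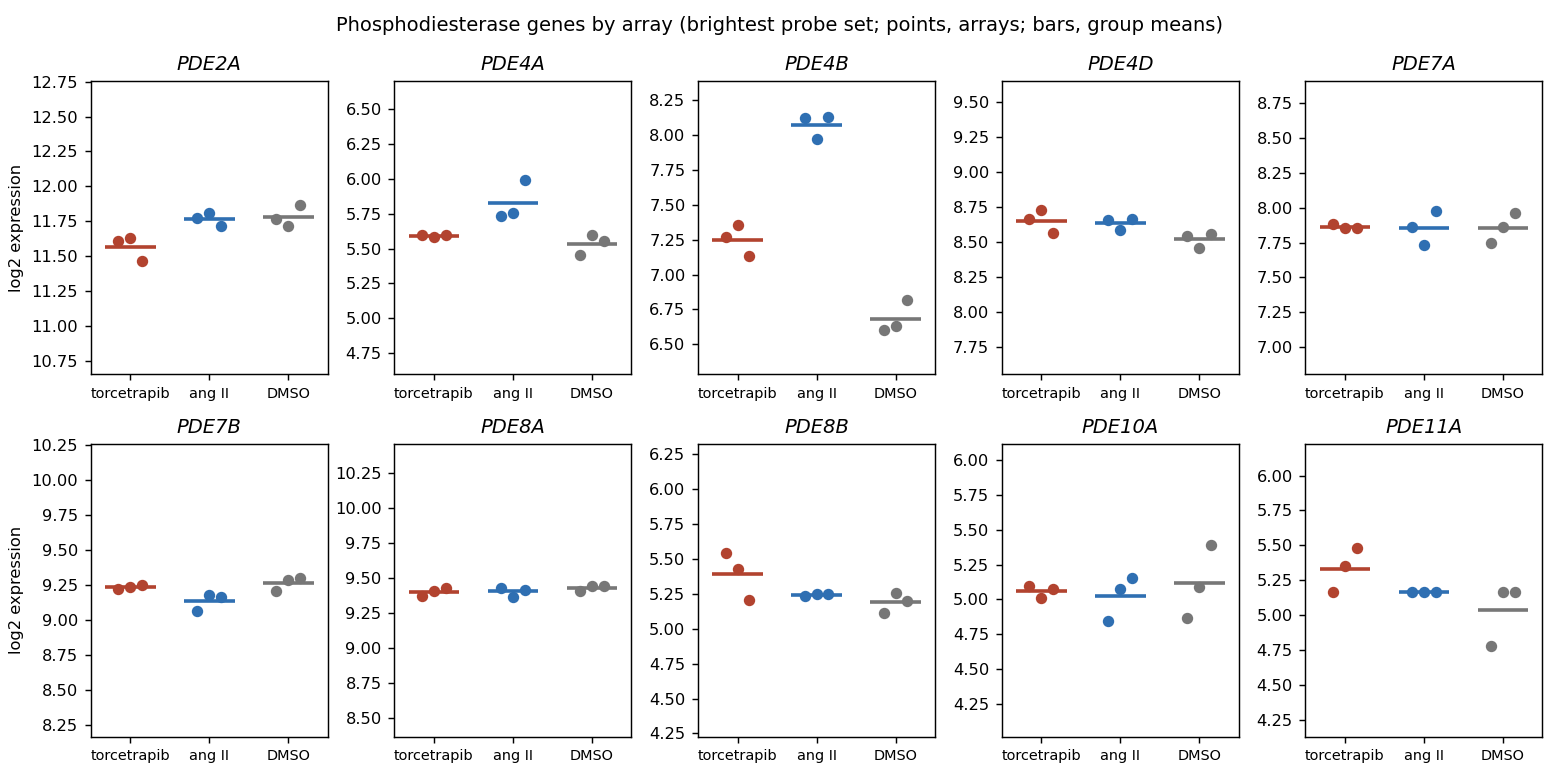
Log2 expression of the 10 genes on each array, every panel spanning the same log2 range around its mean, with torcetrapib, angiotensin II and DMSO from left to right; points are arrays and bars group means. PDE4B separates into 3 groups, from 7.13 to 7.35 with torcetrapib, 7.97 to 8.13 with angiotensin II and 6.60 to 6.82 with DMSO, while no other gene separates this way.

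PDE4B has 3 probe sets, and they do not give the same size of difference between the treatments. The second, 211302_s_at, read 6.22, 6.40 and 6.23 with torcetrapib, 6.51, 6.42 and 6.55 with angiotensin II and 5.34, 5.71 and 5.60 with DMSO. Every treated array lay above every DMSO array on it. In one limma model over all 41091 probe sets with 1 gene symbol, its change was 0.73 ± 0.11 with torcetrapib (adjusted p = 0.00856) and 0.94 ± 0.11 with angiotensin II (adjusted p = 0.000167). On this probe set torcetrapib lay 0.21 under angiotensin II (-0.21 ± 0.11, interval -0.44 to 0.02, adjusted p = 0.251), where the brightest probe set, 203708_at, gave -0.83 ± 0.09. With the RNA quality index in this model, 211302_s_at gave -0.53 ± 0.16 between the treatments (adjusted p = 0.257), beside -0.86 ± 0.16 for 203708_at. Its changes against DMSO were then 0.51 ± 0.13 with torcetrapib (adjusted p = 0.220) and 1.04 ± 0.10 with angiotensin II (adjusted p = 2.42e-05). The third, 215671_at, was dim, with values from 2.79 to 2.99 on the 9 arrays, and its changes did not pass. By the mean of the 3 probe sets PDE4B still passed, with smaller changes of 0.45 for torcetrapib and 0.78 for angiotensin II against DMSO and of -0.33 between the treatments.

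**Figure D2:**
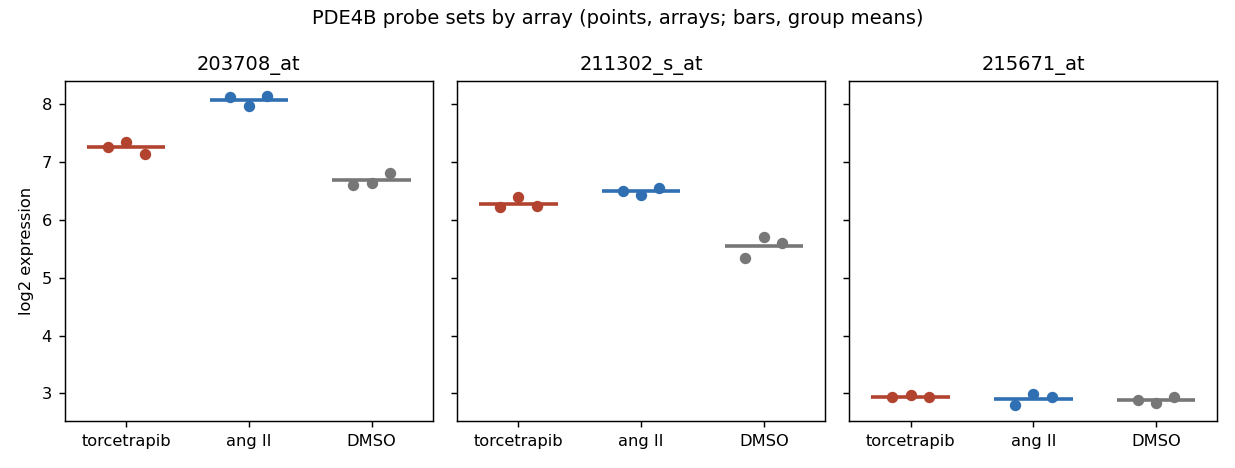
Log2 expression of the 3 probe sets of PDE4B on each array, with torcetrapib, angiotensin II and DMSO from left to right; points are arrays and bars group means. The first probe set puts torcetrapib between the other groups, the second puts it 0.21 under angiotensin II, and the third is dim in all groups.

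Its closest relatives among the 10 genes, PDE4A and PDE4D, showed no called change by their brightest probe sets. PDE4A, another cyclic AMP-specific enzyme, read 5.60, 5.58 and 5.60 with torcetrapib, 5.73, 5.75 and 5.99 with angiotensin II and 5.45, 5.60 and 5.55 with DMSO. All angiotensin II arrays lay above the others, and the difference from DMSO was 0.29 ± 0.10 (interval 0.09 to 0.50) with adjusted p = 0.101 in limma. Its mean lies below that of the median gene. PDE4D, which is regulated by protein kinase A and by ERK, read 8.67, 8.73 and 8.56 with torcetrapib, 8.66, 8.58 and 8.67 with angiotensin II and 8.54, 8.45 and 8.56 with DMSO. The lowest treated arrays lay just above the highest DMSO array. Its differences from DMSO were 0.13 ± 0.07 with torcetrapib (interval -0.004 to 0.27, adjusted p = 0.393) and 0.12 ± 0.07 with angiotensin II (interval -0.02 to 0.26, adjusted p = 0.415).

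The PDE7 and PDE8 enzymes hydrolyse cyclic AMP with high affinity. None of their 4 genes was called by its brightest probe set in any of the 3 comparisons. Dimmer probe sets of PDE7A, PDE7B and PDE8A were called between the treatments, at 0.71, 0.59 and 0.44, as given below. PDE7A read 7.88, 7.85 and 7.85 with torcetrapib, 7.86, 7.73 and 7.97 with angiotensin II and 7.74, 7.86 and 7.96 with DMSO. Its groups overlapped throughout, and the intervals of its differences from DMSO reached from -0.17 to 0.18 with torcetrapib and from -0.17 to 0.17 with angiotensin II. PDE7B read 9.22, 9.23 and 9.25 with torcetrapib, 9.06, 9.18 and 9.17 with angiotensin II and 9.21, 9.29 and 9.30 with DMSO. The angiotensin II arrays were the lowest, with a difference from DMSO of -0.13 ± 0.06 (interval -0.25 to -0.01, adjusted p = 0.238). PDE7B, like PDE4A, has a start with the full CRE printed above.

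PDE8A, bright on the array, varied least of the 10 genes by their brightest probe sets. It read 9.37, 9.40 and 9.43 with torcetrapib, 9.43, 9.37 and 9.42 with angiotensin II and 9.41, 9.44 and 9.45 with DMSO. Both intervals against DMSO stayed within -0.14 to 0.08. PDE8B read 5.54, 5.43 and 5.20 with torcetrapib, 5.24, 5.25 and 5.25 with angiotensin II and 5.11, 5.25 and 5.20 with DMSO. Torcetrapib replicates 1 and 2 were the highest arrays and replicate 3 lay among the DMSO arrays, so the difference of 0.20 ± 0.10 (interval -0.01 to 0.42) did not pass (adjusted p = 0.402).

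PDE2A, the cyclic GMP-stimulated enzyme, was the brightest of these probe sets and fell with torcetrapib by a small amount. It read 11.61, 11.63 and 11.47 with torcetrapib, 11.77, 11.81 and 11.71 with angiotensin II and 11.77, 11.71 and 11.86 with DMSO. All torcetrapib arrays lay below all others. The level was 1.16-fold lower with torcetrapib than with DMSO (-0.21 ± 0.05, interval -0.32 to -0.11, adjusted p = 0.0435) and 1.15-fold lower than with angiotensin II (-0.20 ± 0.05, adjusted p = 0.0147). Angiotensin II against DMSO gave -0.02 ± 0.05 (interval -0.12 to 0.08, adjusted p = 0.918). The call against DMSO lies next to the threshold and ended without DMSO replicate 1 or 3 (adjusted p = 0.130 and 0.191) and without torcetrapib replicate 1, 2 or 3 (0.110, 0.0771 and 0.196). That against angiotensin II ended without angiotensin II replicate 1 or 2 (0.0527 and 0.0623) and without torcetrapib replicate 3 (0.0823). With the RNA quality index in the model both calls ended (adjusted p = 0.660 against DMSO and 0.695 against angiotensin II). The changes were then -0.18 ± 0.07 and -0.14 ± 0.08. Over the alternatives the lowest adjusted p-values were 0.00970 and 0.000538.

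The other dual-specificity genes, PDE10A and PDE11A, were dim and were not called. PDE10A read 5.09, 5.01 and 5.07 with torcetrapib, 4.84, 5.07 and 5.15 with angiotensin II and 4.87, 5.09 and 5.39 with DMSO, with the DMSO arrays spread the widest. Its differences from DMSO were -0.06 ± 0.12 with torcetrapib and -0.09 ± 0.12 with angiotensin II. PDE11A read 5.16, 5.35 and 5.48 with torcetrapib, 5.16 on all 3 angiotensin II arrays, and 4.78, 5.16 and 5.16 with DMSO. Its deposited value was identical on 6 of the 9 arrays, so its spread cannot be read as that of a measured level, and the torcetrapib difference of 0.30 ± 0.12 did not pass (adjusted p = 0.273) and was -0.12 without _x_at and _s_at probe sets. Identical values on 2 or more arrays were found in 22 of the 38 probe sets of these genes and in 20525 of all 41091.

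Counted over the family, angiotensin II against DMSO gave 1 call in 10, a rise, where 6.12% of all genes were called in either direction, 3.36% higher and 2.76% lower. That split of 665 higher and 545 lower genes was 699 and 1019 with arrays centred on their medians and 798 and 950 after another quantile normalization. Torcetrapib against DMSO gave 1 rise and 1 fall, where 1.16% of all genes were called, 0.592% higher and 0.566% lower. Torcetrapib against angiotensin II gave 2 calls, both lower with torcetrapib, where 11.3% of all genes were called, 4.61% higher and 6.68% lower. That split of 911 higher and 1321 lower genes was 1739 and 1117 after centring and 1598 and 1311 after quantile normalization. The median change of the 10 genes was 0.03 with angiotensin II and 0.03 with torcetrapib against DMSO, beside 0.01 and -0.03 over all genes, and 0.01 for torcetrapib against angiotensin II, beside -0.04. Groups did not overlap for 4 of the 10 genes with angiotensin II against DMSO (17.6% of all genes), for 3 with torcetrapib against DMSO (16.5%) and for 4 with torcetrapib against angiotensin II (28.6%). Both comparisons with DMSO share the DMSO arrays. The calls are those of PDE4B and PDE2A, and the other 8 genes had differences from DMSO between -0.13 and 0.30.

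**Figure D3:**
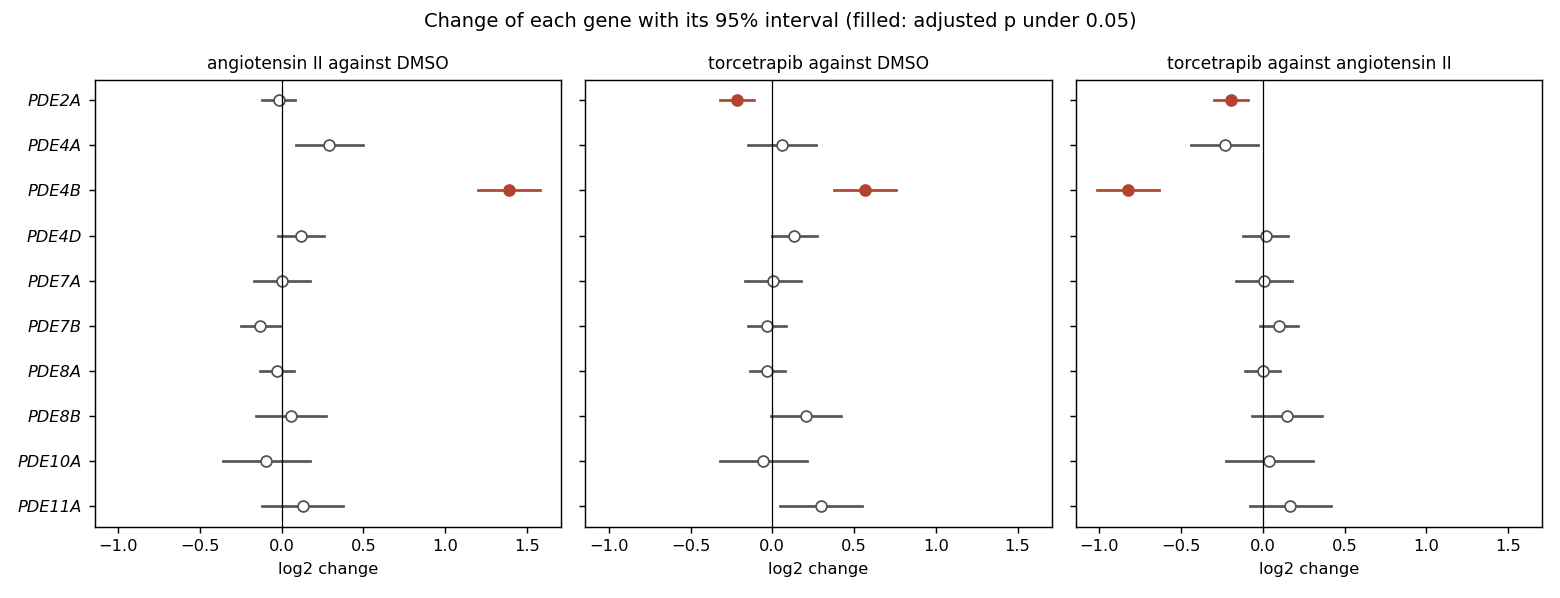
Log2 change of each gene with its 95% limma interval in the 3 comparisons, filled where the adjusted p was under 0.05. PDE4B stands at 1.39 and 0.57 against DMSO and at -0.83 between the treatments, and PDE2A at -0.21 and -0.20 where torcetrapib is compared.

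The 10 genes have 38 probe sets in all, and the other probe sets of a gene did not always follow the brightest one. In the model over all probe sets, 2 were called with angiotensin II against DMSO, both of PDE4B, where 3.63% of all probe sets were called and 2.17% were higher. With torcetrapib against DMSO 3 were called, all higher, where 1.11% of all were called and 0.849% were higher: the first 2 of PDE4B and 210837_s_at of PDE4D. The PDE4D probe set read 5.78, 5.83 and 5.75 with torcetrapib, 5.25, 5.11 and 5.40 with angiotensin II and 5.01, 5.25 and 4.78 with DMSO, and all torcetrapib arrays lay above all others. Its change was 0.77 ± 0.12 against DMSO (adjusted p = 0.0123), while PDE2A missed the threshold here (adjusted p = 0.0693). Without torcetrapib replicate 2 no probe set of the family was called (0 of 38, limma, 7 higher and 1 lower at an unadjusted p of 0.05), without torcetrapib replicate 1 the only one called was 211302_s_at of PDE4B, and without DMSO replicate 2 the count was 9. The PDE4D call also ended without DMSO replicate 3 and without torcetrapib replicate 3, and that of 203708_at ended without DMSO replicate 1.

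Between the treatments 8 of the 38 probe sets were called, where 11.6% of all probe sets were and 7.22% were higher. The 2 that were lower with torcetrapib were the brightest ones of PDE4B and PDE2A. The 6 that were higher were 3 of PDE4D, at 0.53 ± 0.12 (210837_s_at), 0.54 ± 0.16 (210836_x_at) and 0.62 ± 0.18 (1554717_a_at), and 1 each of PDE7A (224046_s_at, 0.71 ± 0.19), PDE7B (220343_at, 0.59 ± 0.13) and PDE8A (1552931_a_at, 0.44 ± 0.12). None of these 6 is the brightest probe set of its gene, and the brightest ones of the same 4 genes differed by 0.02, 0.01, 0.10 and -0.00. On 220343_at of PDE7B the values were 7.11, 7.23 and 7.12 with torcetrapib, 6.48, 6.44 and 6.77 with angiotensin II and 6.50, 6.92 and 6.50 with DMSO. On 224046_s_at of PDE7A they were 6.58, 6.48 and 6.51 with torcetrapib, 5.67, 5.80 and 5.97 with angiotensin II and 5.32, 6.22 and 6.16 with DMSO. The count of 8 fell to 3, 2 and 5 without angiotensin II replicate 1, 2 or 3, and to 3 without torcetrapib replicate 1, 2 or 3.

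The RNA quality index was highest on the torcetrapib arrays, where these probe sets were also higher than with angiotensin II. DMSO replicate 2, the DMSO array with the highest index (-0.276), was also the highest DMSO array on all 6, including 6.92 on 220343_at against 6.50 on either other DMSO array. DMSO replicate 3 had a higher index than replicate 1 (-0.504 against -0.719). It read lower than replicate 1 on 210837_s_at (4.78 against 5.01) and 1554717_a_at (5.65 against 5.71), and higher on the rest of the 6. When the model held the index, an alternative chosen after seeing the data, 1 of the 38 probe sets was called between the treatments, the brightest of PDE4B, and 0 against DMSO (limma, 3 higher and 1 lower at an unadjusted p of 0.05). The 6 differences were then 0.31, 0.04, 0.32, -0.02, 0.21 and -0.00 in the order given above. Within groups the index varied mainly among the DMSO arrays (SD 0.222, against 0.029 with torcetrapib and 0.016 with angiotensin II). The fit of the index therefore rests mainly on the DMSO arrays and is not separate from their order given here. Where these probe sets lie along their transcripts is not given in the files, and the part of the index in their differences was not tested.

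**Figure D4:**
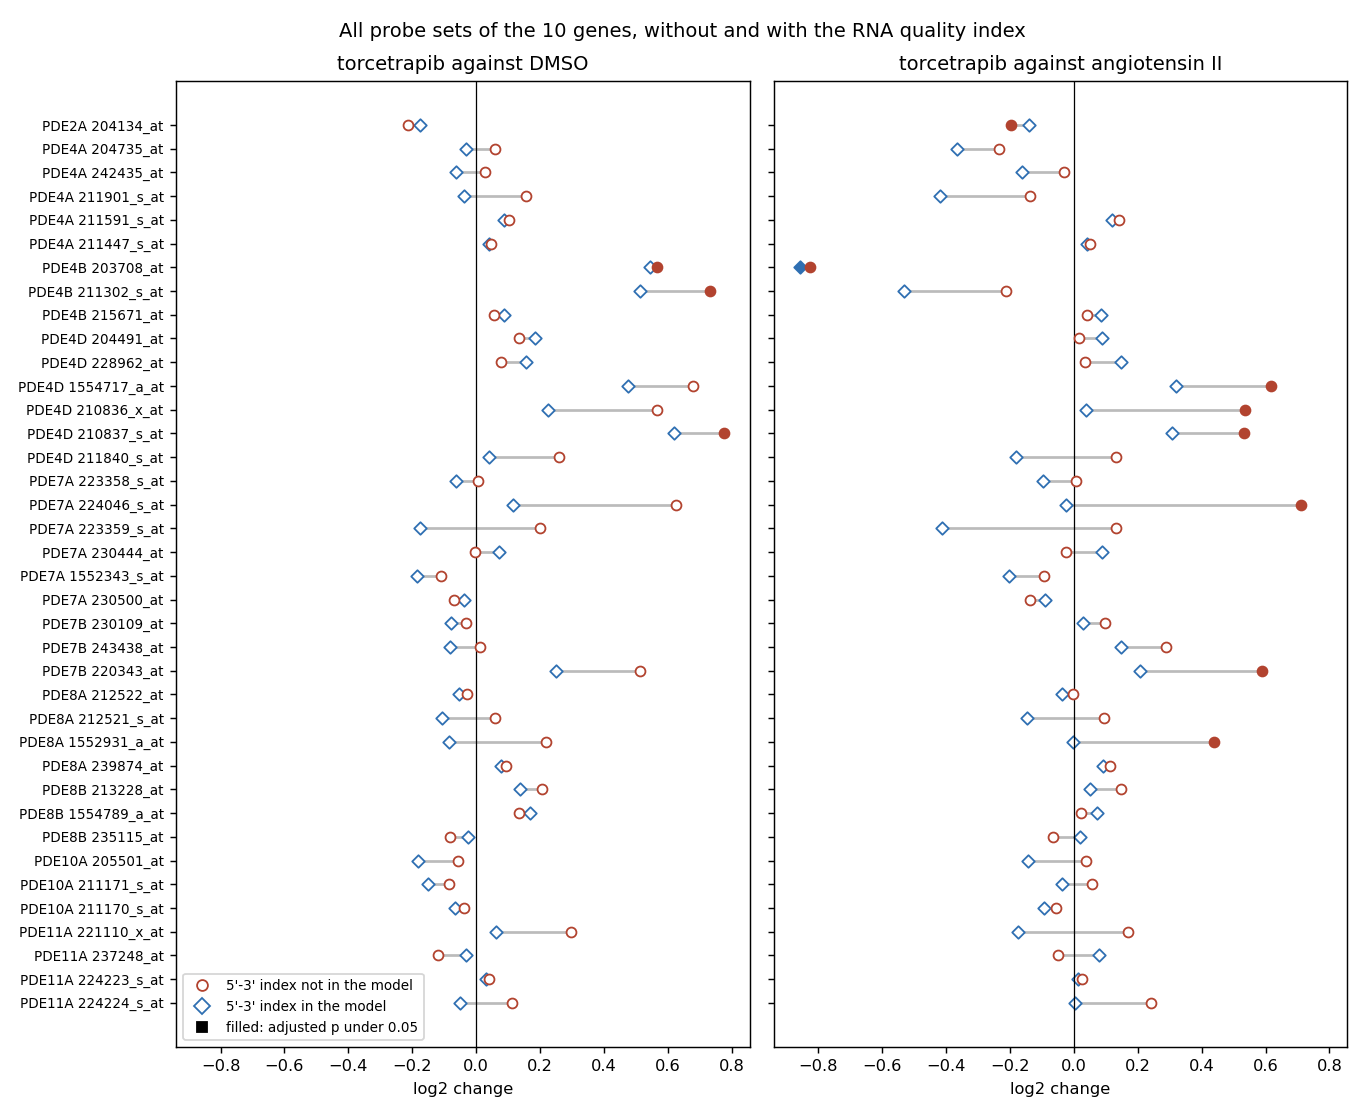
Log2 change of all 38 probe sets for torcetrapib against DMSO and against angiotensin II; circles are from the model without the RNA quality index, diamonds from the model with it, and filled symbols passed an adjusted p of 0.05. The 6 probe sets of PDE4D, PDE7A, PDE7B and PDE8A that were higher with torcetrapib than with angiotensin II move towards 0 with the index, while 203708_at of PDE4B stays near -0.83.

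The remaining cyclic nucleotide phosphodiesterases showed no called change. Of 14 listed genes 12 were measured, and 0 were called in each comparison (limma; at an unadjusted p of 0.05 none with angiotensin II, 1 higher with torcetrapib against DMSO, and 1 lower with torcetrapib against angiotensin II). PDE5A, the cyclic GMP-specific enzyme, had the largest differences from DMSO, at 0.24 ± 0.10 with torcetrapib (adjusted p = 0.332) and 0.20 ± 0.10 with angiotensin II (adjusted p = 0.378). PDE9A, also specific for cyclic GMP, averaged 7.99 with torcetrapib and 8.22 with angiotensin II (-0.23 ± 0.07, adjusted p = 0.0522). The calmodulin-dependent PDE1C gave -0.17 ± 0.11 for torcetrapib against DMSO (adjusted p = 0.534) and -0.19 ± 0.11 for torcetrapib against angiotensin II (adjusted p = 0.299). The photoreceptor genes PDE6A and PDE6B gave 0.11 ± 0.11 and -0.09 ± 0.10 with angiotensin II against DMSO, PDE6B gave -0.15 ± 0.10 with torcetrapib against DMSO and PDE6A -0.15 ± 0.11 between the treatments.

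Partners that hold or answer to these enzymes were called about as often as all genes. Of 21 measured kinase subunits, anchoring proteins and other partners, 1 rose and 1 fell with angiotensin II against DMSO: AKAP7, an anchor of protein kinase A, at 0.13 ± 0.04 (adjusted p = 0.0422), and PRKAR2B, a regulatory subunit of that kinase, at -0.15 ± 0.03 (adjusted p = 0.0130). With torcetrapib against DMSO 0 of 21 were called (limma, 0 higher and 1 lower at an unadjusted p of 0.05). Between the treatments the catalytic subunit PRKACA was lower with torcetrapib (-0.29 ± 0.08, adjusted p = 0.0371) and PRKAR2B higher (0.12 ± 0.03, adjusted p = 0.0273). These are 2, 0 and 2 calls in 21, beside 6.12%, 1.16% and 11.3% of all genes. Each of these calls ended in some alternatives (highest adjusted p from 0.197 to 0.982), and PRKACA turned to 0.03 by the mean of its probe sets. The median changes of the list were 0.00, -0.03 and -0.03 in the 3 comparisons, beside 0.01, -0.03 and -0.04 over all genes.

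Genes that make or sense cyclic nucleotides were likewise called about as often as all genes. Of 24 measured, 2 rose with angiotensin II against DMSO: the corticotropin receptor MC2R (0.41 ± 0.10, adjusted p = 0.0203) and NPR3, the clearance receptor of natriuretic peptides (0.36 ± 0.09, adjusted p = 0.0311). With torcetrapib against DMSO 0 of 24 were called (limma, 1 higher and 1 lower at an unadjusted p of 0.05). Between the treatments GNAI1, an inhibitory G protein subunit, was higher with torcetrapib (0.36 ± 0.06, adjusted p = 0.000990), and the adenylyl cyclase ADCY6 (-0.28 ± 0.07, adjusted p = 0.0108) and the cyclic GMP-dependent kinase PRKG1 (-0.31 ± 0.09, adjusted p = 0.0352) were lower. These are 2, 0 and 3 calls in 24, beside 6.12%, 1.16% and 11.3% of all genes. These 5 calls ended in some alternatives too (highest adjusted p from 0.0853 for MC2R to 0.825 for ADCY6).

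The next list mixes CREB factors with genes induced by cyclic AMP, and PDE4B belongs to the latter class. A larger share of this list was called higher than of all genes. Of 15 measured, 10 rose with angiotensin II and 9 with torcetrapib against DMSO, where 3.36% and 0.592% of all genes were called higher. The remaining 5 and 6 were not called, and the lowest changes in the list were -0.09 and -0.21. The list medians were 1.33 and 0.43. Between the treatments 11 were lower with torcetrapib, with a median of -0.45, where 6.68% of all genes were called lower. The orphan receptor NR4A2 changed by 3.63 with torcetrapib and 4.85 with angiotensin II, the kinase SIK1 by 1.74 and 2.81, and the phosphatase DUSP1 by 0.88 and 1.33, beside 0.57 and 1.39 for PDE4B. CREB5 rose by 0.43 ± 0.10 with torcetrapib (adjusted p = 0.0433) and 1.67 ± 0.10 with angiotensin II, and CREM by 0.28 ± 0.04 and 0.32 ± 0.04. The list was drawn up with earlier results of these arrays known, so its direction is a description. The SIK1 values come from an _s_at probe set, a type that can match several transcripts. Without probe sets of the _s_at and _x_at types its changes were 0.31 with torcetrapib (adjusted p = 0.228) and 0.22 with angiotensin II (adjusted p = 0.367). NR4A1, also on the list, lost its call in 1 of 17 alternatives against DMSO. Its lowest changes were 0.12 with torcetrapib (highest limma adjusted p = 0.718) and 0.32 with angiotensin II (0.0796). NR4A2 had a value in 16 alternatives only and kept its call in these.

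**Figure D5:**
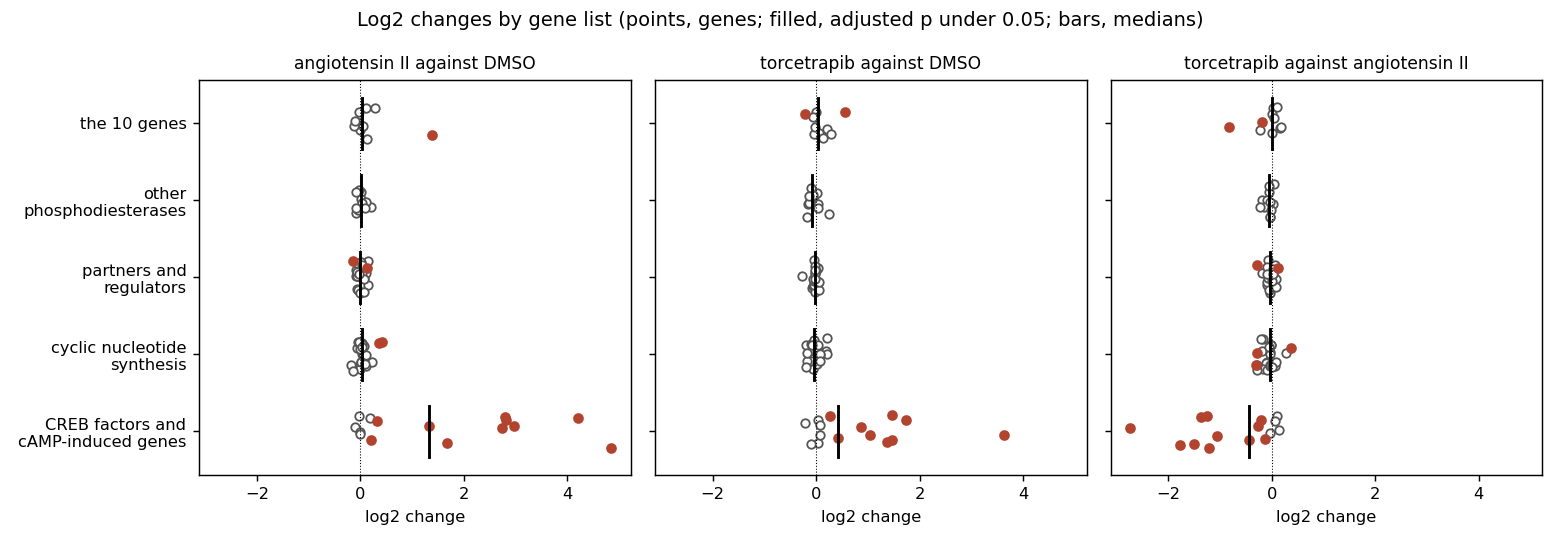
Log2 change of each gene by list in the 3 comparisons; points are genes, filled where the adjusted p was under 0.05, and bars are list medians. The 10 genes and the lists of other phosphodiesterases, partners and cyclic nucleotide synthesis have medians between -0.09 and 0.03. The list of CREB factors and cyclic AMP-induced genes has medians of 1.33 and 0.43 against DMSO and of -0.45 between the treatments.

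The genes most like the 2 called members were ranked by Pearson correlation over the 9 arrays, among 650 genes with group means at least 0.5 apart. These points share arrays and treatments, so the ranking describes the pattern alone. PDE4B was followed most closely by TIPARP, an ADP-ribosyltransferase (r = 0.992), MYOT, which encodes a muscle protein (0.991), the transcription factor KLF2 (0.991), the deubiquitinase JOSD1 (0.991) and the neurotrophin BDNF (0.991). TIPARP changed by 0.84 with torcetrapib and 1.97 with angiotensin II against DMSO, and BDNF by 0.67 and 1.47. PDE2A was followed most closely by the fatty acid synthase FASN (r = 0.949), the elongation factor SUPT6H (0.923), the histone methyltransferase KMT2B (0.913), the glycosyltransferase B4GALNT3 (0.893) and the ephrin receptor EPHB4 (0.883). These 5 had changes between -0.51 and -0.34 with torcetrapib and between 0.08 and 0.18 with angiotensin II against DMSO.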

How the data were processed

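RNA of H295R cells was hybridised, 1 sample to each of 9 Affymetrix human arrays. The deposited log2 values, 1 per probe set, were made by the authors with RMA (a robust multi-array average), which the submitters' processing notes name. Its software version was not given in the sources used here. RMA shares probe effects across arrays, and the deposited values hold exact ties. Each of 19775 genes was taken as its brightest probe set with 1 symbol, and a look-up of symbols by Entrez identifier changed 0 of them. Values were used without further normalization. Differences came from limma 3.58.1 (R 4.3.3), in one model with 3 group means, an intensity trend and Benjamini-Hochberg adjustment over all genes, with 6 residual degrees of freedom and a threshold of 0.05. A second model covered all 41091 probe sets with 1 symbol. The model was run on simulated data with known changes. All 10 members were named, with list genes that were called or had the largest changes and the 5 genes most like each called member. The members, lists and markers were chosen with earlier results of these data known. Of 82 list genes, 72 were measured and 10 were not analysed here. Alternatives were other normalizations, probe-set rules, filters, models and thresholds, the RNA quality index, and each array left out. Array signal gives no read depth, and the number of arrays limits the precision.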

Additional observations from a re-analysis of the deposited data

How the results depend on the processing

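PDE4B kept its direction in all 17 alternatives of each comparison and its call in all 17 for angiotensin II against DMSO, all 17 for torcetrapib against angiotensin II and 16 of 17 for torcetrapib against DMSO, although its size fell to 0.78, -0.33 and 0.45 in these by the mean of probe sets. The PDE2A call ended in 11 of 17 alternatives against DMSO and in 5 of 17 against angiotensin II. Members called with angiotensin II against DMSO (1) were 3 with array weights, which added PDE4A (0.25, limma adjusted p = 0.0416) and PDE7B (-0.17, 0.0182), and 1 with any array left out. With torcetrapib against DMSO (2) they were 1 without the trend, by the mean of probe sets, without _x_at and _s_at probe sets, with only 2 groups in the model, in one model over all probe sets and at a threshold of 0.01, 0 with the RNA quality index in the model (limma, 1 higher and 1 lower at an unadjusted p of 0.05), and 1 to 2 with an array left out. Between the treatments (2) they were 1 without the trend, with the index and at 0.01, 4 by the mean of probe sets and with array weights, and 1 to 2 with an array left out. The added members were higher with torcetrapib. By the mean of probe sets they were PDE4D (0.31, limma adjusted p = 0.0470) and PDE7B (0.32, 0.0121). With array weights they were PDE7B (0.15, 0.00915) and PDE8B (0.21, 0.0441). Genes called with angiotensin II against DMSO (1210) were 2712 with array weights, 767 at 0.01 and 956 to 1171 with an array left out. With torcetrapib against DMSO (229) they were 50 without the trend, 374 after centring, 431 after quantile normalization, 108 by the mean of probe sets, 136 without _x_at and _s_at probe sets, 1272 with array weights, 76 with the index, 145 with only 2 groups, 78 at 0.01, 503 at 0.10 and 83 to 917 with an array left out. Of the 229, 117 were higher and 112 lower, against 40 and 10 without the trend, 88 and 20 by the mean of probe sets, 528 and 744 with array weights and 71 and 5 with the index. Between the treatments the 911 higher and 1321 lower were 1329 and 979 by the mean of probe sets. Between the treatments (2232) they were 6216 with array weights, 280 with the index, 1104 at 0.01 and 1351 to 2193 with an array left out. Array weights gave angiotensin II replicate 1 a weight of 6.15, against 0.448 and 0.480 for the others of its group. Of called values, signs turned for PRKACA between the treatments by the mean of probe sets (0.026, adjusted p = 0.839) and, with the index, for 1552931_a_at of PDE8A (-0.0024) and 224046_s_at of PDE7A (-0.025). Uncalled values also turned. With torcetrapib against DMSO, PDE11A went from 0.30 to -0.12 without _x_at and _s_at probe sets. By the mean of probe sets PDE7B went there from -0.03 to 0.16 and PDE8A from -0.03 to 0.09. The cause was not tested. No paired analysis was possible because the labels give the groups no shared replicate numbers.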

Other observations

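The antisense genes PDE7B-AS1 and PDE11A-AS1 were dim and were not called in any comparison. PDE7B-AS1 averaged 3.25 with torcetrapib, 3.37 with angiotensin II and 3.34 with DMSO, and PDE11A-AS1 averaged 3.56 with torcetrapib, 3.58 with angiotensin II and 3.65 with DMSO.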
